A study of Mus musculus with 6 samples.

Results

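The MYC and MAX network factors are 10 mouse genes: Myc, Mycn, Mycl, Max, Mxd1, Mxd3, Mxd4, Mxi1, Mnt and Mlx. Their rows were taken by symbol, from a list made with earlier results of these data known. All 10 have a row among the 53762 gene symbols of the count files. The cells were embryonic fibroblasts of the mouse (MEFs) in an immortalized form, that is, connective tissue cells that go on dividing in culture, collected 24 hours after they were seeded in high-glucose medium with serum. There were 3 libraries of PME-1 knockout cells (KO) and 3 of wild-type cells (WT). PME-1, encoded by Ppme1, removes a methyl group from the catalytic subunit of the phosphatase PP2A. The titles call all knockout libraries PME-1 KO, whereas the genotype field reads PME-1, PME-2 and PME-3 knockout for KO 1, KO 2 and KO 3, and the titles were followed. The labels do not say how the knockout was made, nor whether the libraries of a group came from separate clones, embryos or cultures, so the p-values measure the spread between these libraries, which may be technical.

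MYC is a transcription factor that binds DNA only as a pair with MAX, at the E-box CACGTG, and raises genes of growth such as those for ribosome assembly and nucleotide synthesis. The proteins encoded by Mxd1, Mxi1, Mxd3, Mxd4 and Mnt also pair with MAX, bind the same sites and recruit the SIN3 corepressor, so they compete with MYC. MLX, the other hub of the network, pairs with the glucose-sensing factors MondoA and ChREBP and also with some of the MXD proteins. PP2A bears on the network at the protein level: with a B56 subunit it removes a phosphate that stabilizes MYC, after which MYC is degraded. Read counts show transcripts only, and neither MYC protein nor its phosphorylation was measured.

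Ppme1 itself had 18.2, 14.9 and 18.9 CPM (a gene's read count scaled to the size of its library) in KO 1, KO 2 and KO 3, against 78.4, 80.7 and 86.6 CPM in WT 1, WT 2 and WT 3. It was 4.72-fold lower in KO (adjusted p = 0.000563, edgeR), and every KO library was below every WT library, as the titles have it. Total counts ranged from 34450993 to 44116310 per library, and the library sizes behind CPM carry TMM factors. Xist was at most 0.31 CPM in KO libraries and at least 370 CPM in WT libraries, and the sum of 4 Y-linked genes was 140 to 161 CPM in KO and 0 in WT. Sex markers and genotype thus separate the libraries in the same way and cannot be told apart. The 12 fibroblast markers summed to 9611 to 11364 CPM in KO and 12247 to 19133 CPM in WT, although Lum was at most 2.61 CPM in any library. Of the 12, 4 were lower in KO at an adjusted p under 0.05 (33.3%, against 3.86% of all genes tested, edgeR). Of 8 blood cell markers, 5 had no count in any library, and the 8 summed to at most 4.94 CPM in KO and 2.82 CPM in WT. The endothelial markers summed to at most 3.44 CPM in KO and 2.19 CPM in WT. Of the 2 endothelial markers tested, 1 was higher in KO, against 3.55% of all genes tested (edgeR). The 7 neural markers summed to 35.6 to 37.6 CPM in KO and 34.1 to 41.4 CPM in WT. Of the 4 neural markers tested, 1 was higher and 1 lower in KO at an adjusted p under 0.05 (edgeR). Over all genes tested 3.55% were higher and 3.86% lower. The similar sums of the neural markers thus do not show that each marker was unchanged. The 8 epithelial markers summed to 127 to 147 CPM in KO and 8.54 to 32.0 CPM in WT, with Krt5 and Krt14 at 0 throughout. Of the 6 epithelial markers tested, 2 were higher in KO (33.3%, against 3.55% of all genes tested). The part of these marker differences in the results was not tested.

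Libraries KO 1 and WT 1 stood apart from the other libraries of their own group, in opposite directions, and many members followed. Of the 15223 genes tested, 29.4% had KO 1 below KO 2 and KO 3 together with WT 1 above WT 2 and WT 3, and 32.1% had the reverse. All 9 members tested fell into one of these classes. Myc, Mycl, Max and Mlx had KO 1 as the lowest KO library and WT 1 as the highest WT library. Mxd1, Mxi1, Mxd3, Mxd4 and Mnt, the 5 antagonists, had KO 1 as the highest KO library and WT 1 as the lowest WT library. The tested members are therefore also given without KO 1 and WT 1, a choice made after the data were seen. In that setting 48.0% of 15449 genes were called, 23.3% higher and 24.6% lower in KO, and genotype cannot be told apart there from whatever set KO 2 and KO 3 against WT 2 and WT 3.

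**Figure D1:**
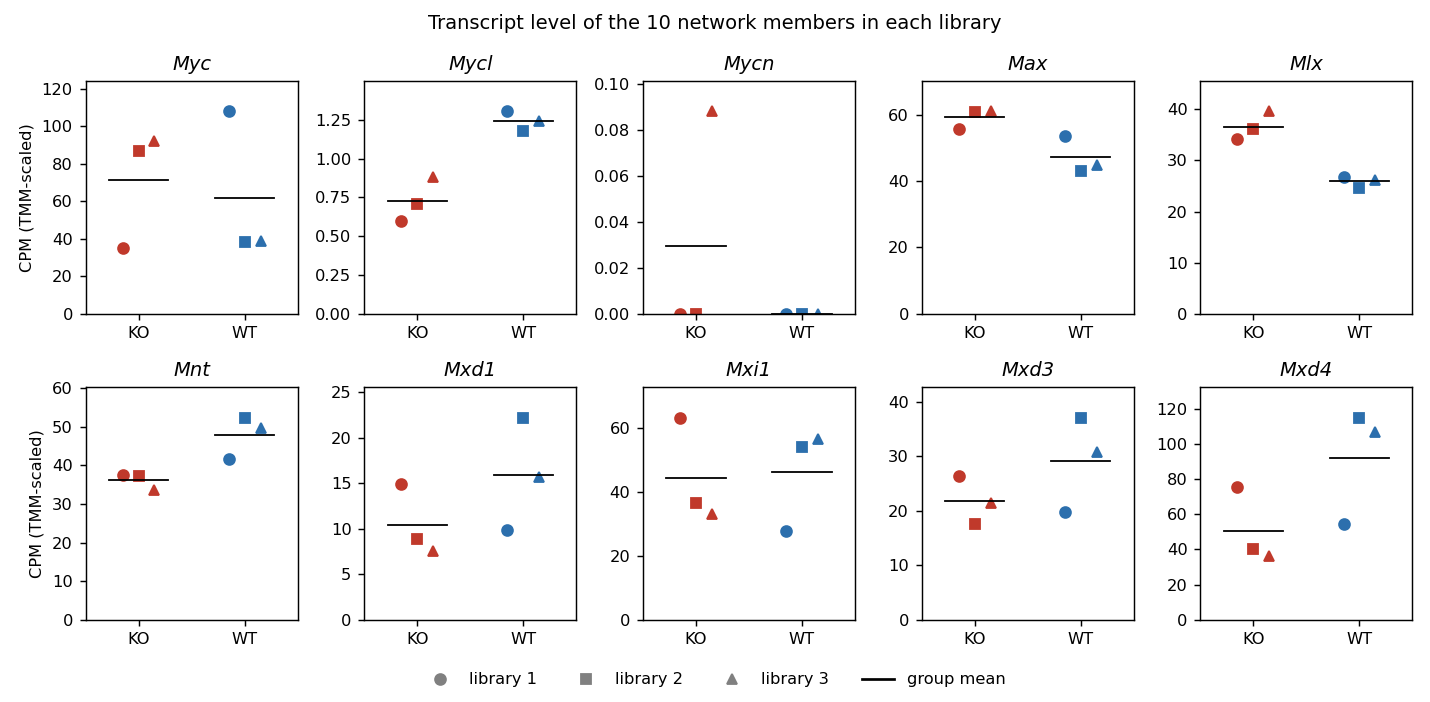
Level of each member in CPM (vertical axes, each starting at 0) in the 3 KO and the 3 WT libraries, with symbols for the library number and lines for group means. The KO and WT libraries of Mlx, Max, Mnt and Mycl do not overlap, while Myc is high in KO 2, KO 3 and WT 1 and low in KO 1, WT 2 and WT 3.

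Of the 9 members tested, 1 passed the threshold of 0.05 on the adjusted p (edgeR's quasi-likelihood test, Benjamini-Hochberg over all genes tested). It was Mlx, which was higher in KO. Over all genes tested 7.40% were called, 3.55% higher in KO and 3.86% lower, so 1 of 9 is near the background. The median log2 fold change of the 9 members was -0.40, beside 0.01 over all genes tested. The groups did not overlap in 4 of the 9 members, against 30.0% of all genes tested. The 10th member, Mycn, was too low to test.

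Myc, the widely expressed MYC gene (ENSMUSG00000022346.15, GRCm38 chromosome 15, 61985391 to 61990374), differed more between libraries of one genotype than between genotypes. It had 34.8, 86.7 and 92.2 CPM in KO 1, KO 2 and KO 3, against 108, 38.3 and 38.7 CPM in WT 1, WT 2 and WT 3. The highest and the lowest of the 6 libraries were both numbered 1, WT 1 and KO 1, and the groups overlapped almost completely. Within KO the highest library held 2.65 times the level of the lowest, and within WT 2.81 times. The mean was 71.2 ± 31.6 CPM in KO and 61.6 ± 40.0 CPM in WT (SD, n = 3 each). The log2 fold change was 0.21 (SE 0.52, 95% interval -1.03 to 1.45, adjusted p = 0.862 with edgeR), so a difference of about 2-fold in either direction lies within the interval. Leaving out 1 library moved it between -0.04 (without WT 2) and 0.89 (without WT 1), and Myc was not called in any of these fits. Without KO 1 and WT 1 together it was 1.21, higher in KO (adjusted p = 1.35e-07, edgeR).

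The neighbouring noncoding gene Pvt1, which lies downstream of Myc on chromosome 15 (62037986 to 62378096), did not show that spread. It had 10.9, 8.59 and 8.99 CPM in the KO libraries and 9.46, 7.09 and 6.20 CPM in the WT libraries (log2 fold change 0.32, adjusted p = 0.461). KO 1, the lowest library for Myc, was the highest for Pvt1.

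Mycl and Mycn, the paralogues known from neural and other restricted tissues, were low or absent. Mycl (chromosome 4) had 0.595, 0.704 and 0.881 CPM in KO libraries, against 1.30, 1.18 and 1.24 CPM in WT libraries. Every KO library was below every WT library, but the counts behind these values were small, 83 over the KO libraries and 152 over the WT libraries. The log2 fold change was -0.77 (95% interval -1.65 to 0.11, adjusted p = 0.285, edgeR), and it was -0.61 without KO 1 and WT 1 (adjusted p = 0.373). Mycn (chromosome 12) had 3 counts in KO 3 and 0 in the 5 other libraries. A floor of 3 counts is 0.0689 to 0.0881 CPM in these libraries, so Mycn was at or under the floor throughout and no fold is given.

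Max, the obligate partner (ENSMUSG00000059436.13, chromosome 12, 76937269 to 76962201), varied little. It had 55.8, 61.1 and 61.1 CPM in KO libraries, against 53.8, 43.0 and 44.9 CPM in WT libraries. The groups did not overlap, by a narrow margin between KO 1 and WT 1. The means were 59.3 ± 3.04 CPM in KO and 47.2 ± 5.77 CPM in WT (SD, n = 3 each), a log2 fold change of 0.33 (SE 0.12, adjusted p = 0.177, edgeR). It did not pass there, nor with any other scaling, filter, tool or single library left out, and passed without KO 1 and WT 1 (0.47, adjusted p = 0.000334).

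Mlx (ENSMUSG00000017801.15, chromosome 11, 101087277 to 101092207) was the member that rose. It had 34.1, 36.2 and 39.6 CPM in KO 1, KO 2 and KO 3, against 26.8, 24.7 and 26.2 CPM in WT 1, WT 2 and WT 3. All 3 KO libraries were above all WT libraries, and KO 1 and WT 1 lay close to the others of their group. The means were 36.6 ± 2.77 CPM in KO and 25.9 ± 1.10 CPM in WT (SD, n = 3 each), a 1.42-fold difference (log2 fold change 0.50, SE 0.11, 95% interval 0.23 to 0.77, adjusted p = 0.0472, edgeR). The size held between 0.45 and 0.55 when 1 library was left out, but the call sat at the threshold. It was lost without KO 2, KO 3, WT 1, WT 2 or WT 3, with adjusted p from 0.0563 to 0.197, and with no filter on low counts (0.0636). Leaving out KO 1 and WT 1 gave 0.57 (adjusted p = 0.000522). The exons of Mlx share 385 bases, 19.3% of their length, with those of Psmc3ip on the opposite strand, and how reads were divided there is not known. Psmc3ip had a log2 fold change of -0.15 (adjusted p = 0.56).

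**Figure D2:**
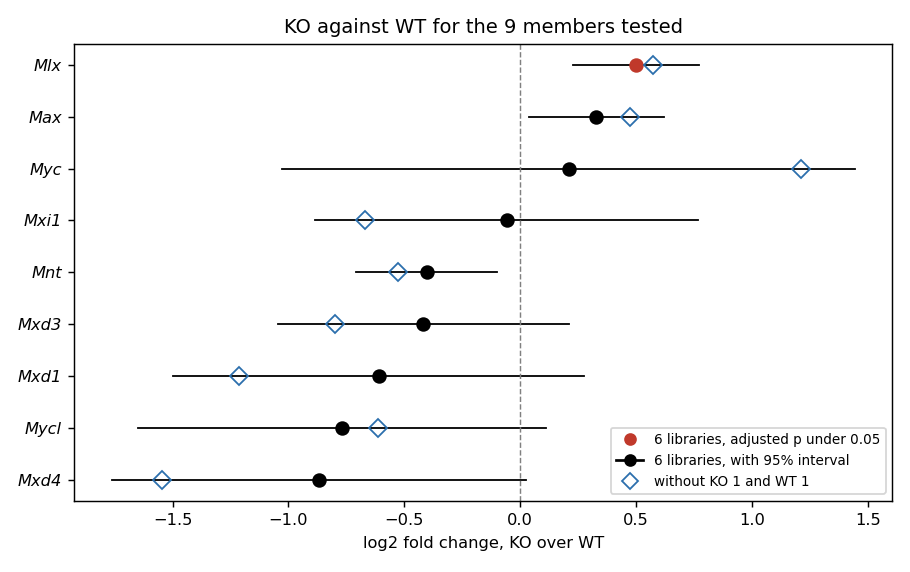
Log2 fold change of KO over WT for the 9 members tested (horizontal axis), as filled circles with 95% intervals from all 6 libraries and as open diamonds without KO 1 and WT 1. The interval of Mlx runs from 0.23 to 0.77, and the diamonds of Myc (1.21) and Mxd4 (-1.55) lie far from their circles (0.21 and -0.87).

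The antagonists all had lower means in KO, though for Mxi1 the sign depended on scaling, and none was called with all libraries. Mnt (ENSMUSG00000000282.12, chromosome 11, 74830920 to 74845725), the antagonist that is expressed in growing and resting cells alike, came closest. It had 37.6, 37.4 and 33.5 CPM in KO libraries, against 41.6, 52.4 and 49.6 CPM in WT libraries. The groups did not overlap, and the log2 fold change was -0.40 (SE 0.13, 95% interval -0.71 to -0.10, adjusted p = 0.119, edgeR). Leaving out KO 1 and WT 1 gave -0.53 (adjusted p = 0.000487).

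Mxd4 (ENSMUSG00000037235.13, chromosome 5, 34173883 to 34187720), an antagonist linked to differentiated and resting cells, had the widest difference. It had 75.3, 40.0 and 36.1 CPM in KO 1, KO 2 and KO 3, against 54.5, 115 and 107 CPM in WT 1, WT 2 and WT 3. WT 1 was below KO 1, and the other WT libraries were above every KO library. The log2 fold change was -0.87 (SE 0.38, 95% interval -1.76 to 0.02, adjusted p = 0.236, edgeR) and -1.55 without KO 1 and WT 1 (adjusted p = 2.85e-08).

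Mxi1 (chromosome 19), also known as MXD2, had close means in the 2 groups with a wide spread. It had 63.3, 36.6 and 33.2 CPM in KO libraries, against 27.7, 54.2 and 56.6 CPM in WT libraries. KO 1 was the highest and WT 1 the lowest of all 6, the reverse of Myc. The log2 fold change was -0.06 (95% interval -0.88 to 0.77, adjusted p = 0.946), it was slightly above 0 (0.02) with upper-quartile factors or library sizes alone, and it was -0.67 without KO 1 and WT 1 (adjusted p = 6.05e-05).

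Mxd1 (chromosome 6), which is known to rise as cells differentiate, was the lowest of the antagonists. It had 15.0, 8.84 and 7.55 CPM in KO libraries, against 9.85, 22.2 and 15.7 CPM in WT libraries (log2 fold change -0.61, adjusted p = 0.399). Mxd3 (chromosome 13), known for its expression in S phase, had 26.5, 17.6 and 21.5 CPM in KO libraries, against 19.7, 37.1 and 30.7 CPM in WT libraries (log2 fold change -0.42, adjusted p = 0.413). In both genes WT 1 fell among the KO libraries and KO 1 was the highest KO library. Without KO 1 and WT 1 the log2 fold changes were -1.21 for Mxd1 and -0.80 for Mxd3 (adjusted p = 0.000235 and 0.00045). In that setting 8 of the 9 members were called, 3 higher and 5 lower, against 48.0% of all genes (23.3% higher and 24.6% lower), and Mycl was the exception.

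**Figure D3:**
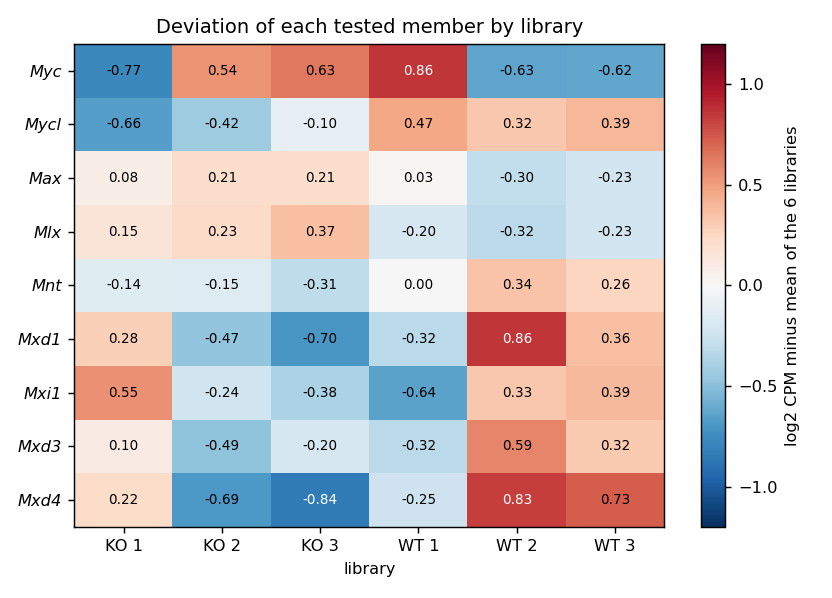
Deviation of log2 CPM from the mean of the 6 libraries for the 9 tested members (rows) in each library (columns, KO left of WT), with the value printed in each cell. Myc is at -0.77 in KO 1 and 0.86 in WT 1, and Mxi1 at 0.55 in KO 1 and -0.64 in WT 1.

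Levels of different members were compared per kilobase of exon, since longer transcripts collect more reads. Averaged over the 6 libraries, Myc was highest at 24.5 CPM per kb, followed by Mlx (15.6), Max (14.8), Mxd3 (10.8), Mnt (9.08), Mxd4 (8.41), Mxi1 (6.63), Mxd1 (1.87), Mycl (0.244) and Mycn (0.00446). The libraries of Myc ranged from 12.8 to 39.7 CPM per kb, so it overlapped with Mlx (12.3 to 19.8) and Max (11.9 to 17.0). Mxd3, Mnt, Mxd4 and Mxi1 overlapped with each other as well. The ranges of Mxd3 (7.44 to 15.7) and Mxd4 (4.25 to 13.6) also reached into those of Myc, Mlx and Max. In WT 2, Mxd3 (15.7) was above Myc (14.1), Mlx (12.3) and Max (11.9). Mxd1 (1.07 to 3.15) and Mycl (0.147 to 0.323) each stood clear of their neighbours. Scaled by the longest coding transcript instead, a choice made after the data were seen, Max moved to rank 2 (27.4 CPM per kb) and Mlx to rank 5 (15.9), while Myc kept rank 1 and Mxi1, Mxd1, Mycl and Mycn kept ranks 7 to 10.

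The balance of Myc transcripts to those of its antagonists was high in KO 2, KO 3 and WT 1 and low in KO 1, WT 2 and WT 3. Myc was at 12.8, 31.9 and 33.9 CPM per kb in KO 1, KO 2 and KO 3, against 39.7, 14.1 and 14.3 CPM per kb in WT 1, WT 2 and WT 3. The 5 antagonists summed to 39.6, 26.8 and 26.5 CPM per kb in the KO libraries, against 29.2, 51.7 and 46.8 CPM per kb in the WT libraries. The ratio of Myc to this sum was 0.324, 1.19 and 1.28 in the KO libraries, against 1.36, 0.273 and 0.304 in the WT libraries. Per kilobase of exon, Myc exceeded the summed antagonists in KO 2, KO 3 and WT 1, and was well below them in KO 1, WT 2 and WT 3. The ratio of Myc to Max was 0.827, 1.88 and 2.0 in the KO libraries, against 2.65, 1.18 and 1.14 in the WT libraries, and the groups overlapped in both ratios. Which transcript was the more abundant depended on the length used. Per longest coding transcript, the ratio of Myc to the antagonists was 0.235, 0.906 and 0.961 in the KO libraries, against 1.01, 0.194 and 0.217 in the WT libraries, so Myc was then below their sum in KO 2 and KO 3 as well. The ratio of Myc to Max was 0.518, 1.18 and 1.25 in the KO libraries, against 1.66, 0.741 and 0.716 in the WT libraries, so Max was then the higher in WT 2 and WT 3 as well as in KO 1. With both lengths KO 2, KO 3 and WT 1 had the 3 highest values of each ratio.

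**Figure D4:**
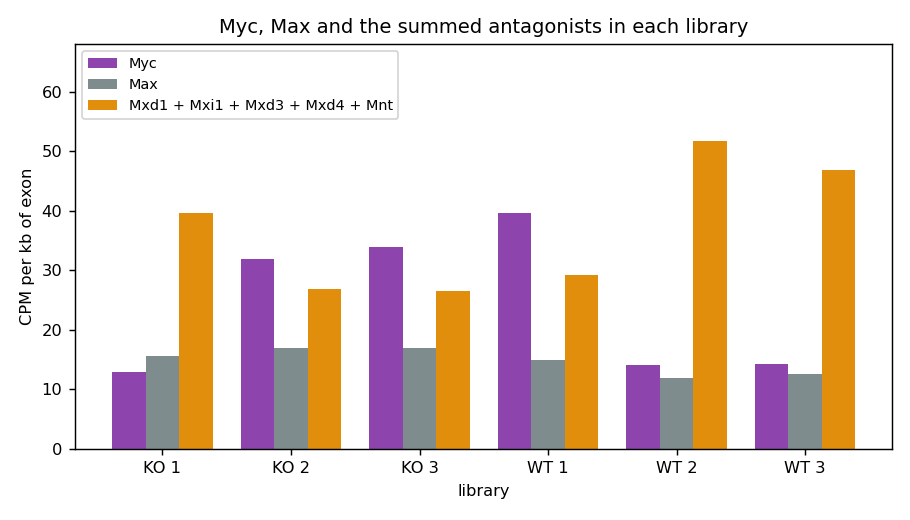
CPM per kilobase of exon for Myc, Max and the sum of the 5 antagonists (bars from 0) in each of the 3 KO and 3 WT libraries, 1 bar per library with no error. Max lies between 11.9 and 17.0 in all libraries, while Myc is above the summed antagonists in KO 2, KO 3 and WT 1 on this length scale and below them in the others.

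Some members of the network hold the E-box CACGTG in their own promoter windows. These windows are shown because the E-box is the site the network binds. RefSeq windows of 250 bases before to 50 bases after the start of the gene (GRCm38.p6) were found for 9 of the 10 members, and none for Myc. CACGTG, which reads the same on both strands, was in the windows of 4 of these 9 members (44.4%), Mlx, Max, Mnt and Mxd4. It was in 7.15% of all 32851 windows, and in the windows of 8.09% of genes. Capitals mark CACGTG, which begins at -40 from the start site in Mlx, -3 in Max, -123 in Mnt and -219 in Mxd4.
Mlx promoter window, chr11:101087040-101087339, plus strand: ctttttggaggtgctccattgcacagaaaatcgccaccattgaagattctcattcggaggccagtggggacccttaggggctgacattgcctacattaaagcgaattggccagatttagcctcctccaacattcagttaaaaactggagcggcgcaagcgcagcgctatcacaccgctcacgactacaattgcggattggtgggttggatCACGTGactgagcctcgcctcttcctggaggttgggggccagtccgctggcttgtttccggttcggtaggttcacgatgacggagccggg
Max promoter window, chr12:76962199-76962498, minus strand: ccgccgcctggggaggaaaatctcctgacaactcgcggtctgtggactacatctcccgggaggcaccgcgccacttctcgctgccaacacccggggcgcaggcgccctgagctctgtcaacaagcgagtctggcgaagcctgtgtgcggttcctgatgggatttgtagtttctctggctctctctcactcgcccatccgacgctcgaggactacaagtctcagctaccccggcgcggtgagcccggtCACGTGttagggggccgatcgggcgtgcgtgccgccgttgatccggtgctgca
Mnt promoter window, chr11:74830674-74830973, plus strand: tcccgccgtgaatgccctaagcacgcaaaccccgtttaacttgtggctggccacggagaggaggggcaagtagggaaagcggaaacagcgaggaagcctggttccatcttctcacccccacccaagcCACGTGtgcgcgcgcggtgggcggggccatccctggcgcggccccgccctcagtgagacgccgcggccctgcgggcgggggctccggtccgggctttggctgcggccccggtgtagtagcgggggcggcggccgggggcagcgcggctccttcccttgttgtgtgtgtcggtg
Mxd4 promoter window, chr5:34187661-34187960, minus strand: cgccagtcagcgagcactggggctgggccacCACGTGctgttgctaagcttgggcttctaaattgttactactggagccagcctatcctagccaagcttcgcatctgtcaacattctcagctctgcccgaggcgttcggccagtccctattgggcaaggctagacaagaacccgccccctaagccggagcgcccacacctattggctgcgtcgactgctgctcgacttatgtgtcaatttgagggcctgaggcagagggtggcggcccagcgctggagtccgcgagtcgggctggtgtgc
Of the 4 members whose groups did not overlap, Mlx, Max and Mnt hold the motif and Mycl does not, and Mxd4, whose groups overlapped, holds it. A match describes the letters and does not show that any factor binds there.

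The rest of the network was measured with 3 more genes, none of which was called with all 6 libraries. Mga, a large factor that joins MAX to a Polycomb complex, had 91.6, 127 and 110 CPM in KO libraries, against 125, 97.6 and 117 CPM in WT libraries (log2 fold change -0.05, adjusted p = 0.903). Mlxip, which encodes MondoA, had 40.4, 51.3 and 51.6 CPM in KO libraries, against 55.7, 39.1 and 44.9 CPM in WT libraries (0.04, adjusted p = 0.93). Leaving out KO 1 and WT 1, Mlxip was called (0.29, adjusted p = 0.0189) and Mga was not (0.15, adjusted p = 0.263). Mlxipl, which encodes ChREBP, had 7 counts in KO 1 and 0 in all others and was not tested. MondoA was thus the MLX partner with a measurable transcript of the pair. Of 9 other subunits of the Polycomb complex with MGA, 0 were called with edgeR (0 at an unadjusted p under 0.05), against 7.40% of all genes. The 2 with the smallest p-values, E2f6 and Cbx3, had log2 fold changes of -0.30 and -0.19 (adjusted p = 0.349 and 0.372).

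Txnip and Arrdc4, arrestin-family genes that restrain glucose uptake and are textbook targets of MLX with MondoA, were not called with all 6 libraries. Txnip had 32.6, 5.98 and 8.14 CPM in KO 1, KO 2 and KO 3, against 12.2, 53.0 and 53.3 CPM in WT 1, WT 2 and WT 3. It was high in KO 1, WT 2 and WT 3 and low in the others, the reverse of Myc. Its log2 fold change was -1.34 (95% interval -3.22 to 0.53, adjusted p = 0.381, edgeR), and -2.92 without KO 1 and WT 1 (adjusted p = 2.83e-08). With 1 library left out the lowest value was -2.49, without KO 1 (adjusted p = 0.0837), and none of these fits called it. Arrdc4 was low, with 1.76, 1.64 and 0.675 CPM in KO libraries, against 0.499, 1.502 and 1.45 CPM in WT libraries (log2 fold change 0.24, adjusted p = 0.857; -0.34 without KO 1 and WT 1). The Txnip window is printed because it holds the paired element known to bind such MLX dimers, CACGNG, 5 bases and CACGNG again, searched on both strands. The Arrdc4 window held no such pair, and had CACGTG at -193 from its start site. The pair was in 0.0487% of all windows, and single CACGNG in 27.5%. Capitals mark it, starting at -85 from the start site.
Txnip promoter window, chr3:96557707-96558006, plus strand: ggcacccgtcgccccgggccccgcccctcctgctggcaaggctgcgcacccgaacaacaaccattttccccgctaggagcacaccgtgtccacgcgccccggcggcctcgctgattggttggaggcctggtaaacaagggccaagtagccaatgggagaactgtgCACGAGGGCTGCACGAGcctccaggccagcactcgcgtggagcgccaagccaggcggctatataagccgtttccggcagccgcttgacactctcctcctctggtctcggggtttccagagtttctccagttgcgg

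In most genes known as activated by MYC, KO 1 was the lowest KO library and WT 1 the highest WT library, as for Myc. Whether Myc set that order was not tested. Of 50 genes known as activated by MYC, 0 were called in edgeR (2 at an unadjusted p under 0.05, 1 called with DESeq2, 0 with limma-voom). Over all genes tested 7.40% were called in edgeR. The median log2 fold change of the 50 was 0.30, beside 0.01 over all genes. On the log2 scale, with the average library at 0, the list medians were -0.58, 0.49 and 0.53 in KO 1, KO 2 and KO 3, against 0.48, -0.49 and -0.48 in WT 1, WT 2 and WT 3. In 46 of the 50 genes (92.0%) KO 1 was the lowest KO library and WT 1 the highest WT library, as for Myc, against 29.4% of all genes tested. The groups failed to overlap in 2 of the 50, against 30.0% of all genes. With KO 1 and WT 1 left out, all 50 were called, 48 higher and 2 lower in KO, in a setting where 48.0% of all genes were called, 23.3% higher and 24.6% lower.

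Ncl, which encodes nucleolin, had 721, 2003 and 2091 CPM in KO libraries, against 1860.1, 705 and 738 CPM in WT libraries. Odc1, the first enzyme of polyamine synthesis, had 145, 345 and 348 CPM in KO libraries, against 368, 159 and 153 CPM in WT libraries. Npm1, the nucleolar protein nucleophosmin, had 755, 1512 and 1568 CPM in KO libraries, against 1127, 588 and 612 CPM in WT libraries. These 3 were chosen after their values were seen, and their groups overlapped, with log2 fold changes of 0.54, 0.30 and 0.72 (adjusted p = 0.605, 0.761 and 0.307). The activated genes with the smallest p-values in the fit were Tert, the telomerase enzyme (log2 fold change 1.06, adjusted p = 0.128), and Impdh2, an enzyme of guanine nucleotide synthesis (0.65, adjusted p = 0.138). Without KO 1 Impdh2 was called at 0.83 (adjusted p = 0.0444).

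Of 12 genes known as repressed by MYC, 1, Cdkn1c, rose and 0 fell (8.33%, against 7.40% of all genes). Cdkn1c, an inhibitor of cyclin-dependent kinases, had 23.0, 14.7 and 13.8 CPM in KO libraries, against 4.77, 7.42 and 8.61 CPM in WT libraries (2.48-fold, adjusted p = 0.0495, edgeR). The call was lost when any of the 6 libraries was left out (adjusted p = 0.0775 to 0.155). In 10 of the 12 (83.3%) KO 1 was the highest KO library and WT 1 the lowest WT library, the reverse of Myc, against 32.1% of all genes. Thbs1, a matrix protein gene and 1 of the other 2, had 338, 1006 and 952 CPM in KO libraries, against 986, 271 and 320 CPM in WT libraries, and was chosen after its values were seen. The fibroblast markers, too, had the reverse order of Myc in 11 of 12, and their part in these results was not tested.

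**Figure D5:**
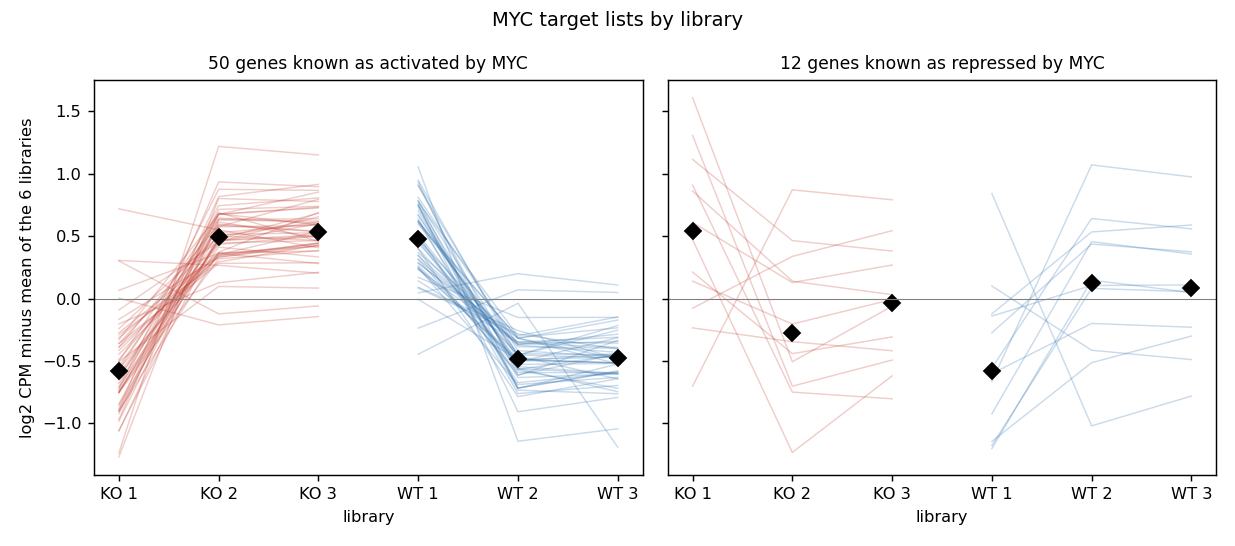
Log2(CPM + 0.05) minus the mean of the 6 libraries (vertical axis) for 50 activated and 12 repressed MYC targets, with a thin line for each gene joining the libraries of 1 genotype and diamonds for list medians. The activated list has medians near -0.58 in KO 1 and 0.48 in WT 1, and most lines of the repressed list run the other way.

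The genes whose pattern over the 6 libraries was most like that of Myc were Aen, a nuclease known as a p53 target, Timm8a1, a mitochondrial import factor, and Ppa1, a pyrophosphatase, with Pearson r of log2 CPM of 0.999, 0.998 and 0.998. They were drawn from 9938 named genes that averaged 5 CPM or more, of which 1076 had r above 0.9 with Myc, so such likeness was common. For Mlx the closest were Xrcc2, Tsnax and Med4, with r of 0.997, 0.996 and 0.993 and 494 genes above 0.9. The points share the same 6 libraries and 2 genotypes, and r is a description.

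The genes that act on MYC protein include PP2A subunits and the degradation machinery. Of 24 such genes 2 were called (8.33%, against 7.40% of all genes), with a median log2 fold change of -0.05. Gsk3b, a kinase that marks MYC for degradation, had 101, 129 and 111 CPM in KO libraries, against 175, 158 and 170 CPM in WT libraries (1.47-fold lower, adjusted p = 0.0422, edgeR). Its groups did not overlap. The call was lost without any 1 of the 6 libraries (adjusted p = 0.0556 to 0.165). Without KO 1 and WT 1 it was called at -0.45.

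Partners on chromatin include coactivators for MYC and corepressors for the MXD proteins. Of 14 coactivators 0 were called in edgeR, DESeq2 or limma-voom (1 at an unadjusted p under 0.05 in edgeR), against 7.40% of all genes in edgeR. The 2 with the smallest p-values, the acetyltransferase Kat5 and the helicase Ruvbl2, had log2 fold changes of 0.31 and 0.32 (adjusted p = 0.212 and 0.369). Of 17 SIN3 and histone deacetylase corepressor genes, 2 fell and 0 rose (11.8%, against 7.40% of all genes). Brms1l, a SIN3 subunit, had 43.5, 41.7 and 40.3 CPM in KO libraries, against 56.5, 61.3 and 59.0 CPM in WT libraries (1.41-fold lower, adjusted p = 0.0303). Ing1, the subunit that reads a histone mark, had 59.4, 67.98 and 67.1 CPM in KO libraries, against 87.1, 88.4 and 89.99 CPM in WT libraries (1.37-fold lower, adjusted p = 0.0414). In both genes the groups stood apart and KO 1 and WT 1 lay with their own group. The Brms1l call was lost without KO 2, KO 3, WT 2 or WT 3 (adjusted p = 0.13 to 0.153) and with upper-quartile factors or library sizes alone, and the Ing1 call without any 1 of the 6 libraries (0.0507 to 0.17).

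Of 12 tested relatives of the network that also bind E-boxes, 1 fell and 0 rose (8.33%, against 7.40% of all genes). Tfeb, a regulator of lysosome genes, had 12.9, 15.6 and 14.1 CPM in KO libraries, against 20.5, 22.0 and 25.7 CPM in WT libraries (1.60-fold lower, adjusted p = 0.0442). That call was lost without KO 1, KO 2, KO 3, WT 2 or WT 3 (adjusted p = 0.0751 to 0.179), with no filter, and with upper-quartile factors or library sizes alone.

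Factors known to act on the Myc gene or its mRNA included 2 that fell and 0 that rose among 19 (10.5%, against 7.40% of all genes). Lef1, a WNT effector at the Myc promoter, had 2.56, 1.01 and 1.498 CPM in KO libraries, against 18.2, 11.6 and 13.8 CPM in WT libraries (8.59-fold lower, adjusted p = 0.00682). Its relative Tcf7l1 had 33.0, 27.5 and 25.9 CPM in KO libraries, against 42.2, 65.8 and 61.9 CPM in WT libraries (1.97-fold lower, adjusted p = 0.0325). Both separated the genotypes in every library, unlike Myc. The Tcf7l1 call was lost without KO 2, KO 3, WT 2 or WT 3 (adjusted p = 0.121 to 0.143) and with upper-quartile factors or library sizes alone.

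Myc is itself a gene that serum induces within the first hours, so other immediate early genes were set beside it. Of 18, 3 rose and 1 fell (22.2%, against 7.40% of all genes). Atf3 rose 3.32-fold (18.6 ± 0.918 CPM in KO and 5.62 ± 1.5 CPM in WT, SD, n = 3 each, adjusted p = 0.00713, edgeR), Ier3 1.70-fold and Nr4a1 1.99-fold (adjusted p = 0.0277 and 0.0486), and Klf2 fell 4.29-fold (0.0143). The Ier3 and Klf2 calls were lost without KO 2, KO 3, WT 2 or WT 3 (adjusted p = 0.106 to 0.122 for Ier3 and 0.0598 to 0.0806 for Klf2), and the Nr4a1 call without any 1 library but WT 1 (0.0631 to 0.183). The list medians were 0.30, 0.00 and 0.16 in the KO libraries, against -0.07, -0.07 and -0.11 in the WT libraries. In 8 of the 18 (44.4%, against 29.4% of all genes) KO 1 was the lowest KO and WT 1 the highest WT library, as for Myc. The reverse held in 7 (38.9%, against 32.1% of all genes).

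Of 18 genes of DNA replication and division 0 were called in edgeR, DESeq2 or limma-voom (2 at an unadjusted p under 0.05 in edgeR), against 7.40% of all genes in edgeR. The list medians were -0.17, 0.05 and 0.04 in the KO libraries, against 0.02, 0.03 and 0.06 in the WT libraries. E2f1, a factor that drives entry to S phase, and Mcm7, a subunit of the replicative helicase, had the smallest p-values (log2 fold changes -0.38 and -0.29, adjusted p = 0.166 and 0.181), and both were lower in every KO library than in any WT library. The groups did not overlap in 7 of the 18 genes (38.9%, against 30.0% of all genes tested). In bulk RNA, fewer cells of a kind and less RNA per cell cannot be told apart.

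The counts over these lists were higher when KO 1 and WT 1 were left out, as was the count over all genes (48.0%). In that setting 3 of 9 Polycomb subunits, 10 of 24 genes acting on MYC protein, 7 of 14 coactivators, 6 of 17 corepressors, 8 E-box binding relatives and 14 of 19 factors for the Myc gene or mRNA were called. So were 10 of 12 repressed targets (4 higher, 6 lower), 15 of 18 immediate early genes (8 higher, 7 lower) and 11 of 18 replication genes (5 higher, 6 lower). Among the named genes not called with all libraries, Ruvbl2 (0.60), Ncl (1.503), Odc1 (1.151), Npm1 (1.36), Impdh2 (1.01), Tert (0.997) and Thbs1 (1.73) were then called higher in KO, and E2f1 (-0.56) and Mcm7 (-0.38) lower, all as log2 fold changes. Pvt1, Kat5, E2f6 and Cbx3 were not called there either (adjusted p = 0.0907, 0.132, 0.626 and 0.149).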

How the data were processed

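RNA was sequenced from 3 PME-1 KO and 3 WT MEF libraries after a strand-keeping library kit, per the labels' protocols. The authors deposited raw counts of reads, listed by gene symbol for each library. The submitters' processing notes list Trim Galore 0.6.6, HISAT2 2.2.1 and a human build, although the symbols are mouse. Which program counted the reads, on which annotation and with what strand setting, is not given in the sources used here. Positions and exon lengths (union of exons) come from GENCODE M21 on GRCm38, looked up by symbol, and promoter windows from RefSeq. Total counts limit precision, and floors cover counting error only.

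All genes were tested by the quasi-likelihood test of edgeR 4.0.16 under R 4.3.3, with its default filter on low counts, TMM factors, robust dispersions and no replicate block and adjusted over 15223 genes at a threshold of 0.05. All adjusted p-values are from edgeR unless another tool is named. SE is the log2 fold change over the square root of F. Alternatives were DESeq2 1.42.0, limma-voom (limma 3.58.1), other scaling factors and filters, the replicate block and leaving out libraries. Likeness used a prior count of 2. Overlaps with similar transcripts were searched with blastn 2.17.0. The test was tried on simulated counts. No 2 libraries were alike within sampling noise (chi-square per degree of freedom at least 10.8). The value was 11.0 for KO 2 with KO 3 and 10.8 for WT 2 with WT 3. WT 1 had 72.1 and 65.9 with KO 2 and KO 3, below its 103 and 92.3 with WT 2 and WT 3. KO 1 had 109.5 and 94.9 with KO 2 and KO 3, and 97.3 and 104.3 with WT 2 and WT 3.

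Members and gene lists were chosen with earlier results of these data known. Named genes are the members, Mga, Mlxip, Mlxipl, Txnip, Arrdc4, Pvt1, Ppme1, and in each other list up to 4 called genes or, where none was called, the 2 with the smallest p-values. The result of 1 gene under this rule is not reported here.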

Additional observations from a re-analysis of the deposited data

How the results depend on the processing

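The count of 1 member called, Mlx, was the same with DESeq2, limma-voom, median-ratio factors, upper-quartile factors, library sizes alone and a mean of at least 5 CPM. It was 0 with no filter and 0 with the replicate block, and 0 to 1 when 1 library was left out. Without KO 1 and WT 1 it was 8, 3 higher and 5 lower. Over all genes, 332 to 1216 were called with 1 library left out and 1957 with DESeq2, against 1127. KO and WT libraries of the same number did not vary together: their deviations from the group means correlated at -0.815, -0.694 and -0.683. KO 2 with WT 3 gave -0.561 and KO 3 with WT 2 -0.543, while the other pairs of unlike number gave 0.69 to 0.72. Deviations within a group are tied to each other, so these values are not independent. With the replicate block 8 genes were called in all, while the log2 fold change of Mlx stayed at 0.50 (adjusted p = 0.338). Calls of the other named genes that were lost under a scaling or filter were those of Brms1l, Tfeb, Tcf7l1 and Cdkn1c, the last also under the filter at 5 CPM, and Tert was called with DESeq2. Alternative scaling moved the median of all genes by at most 0.08 on the log2 scale. Depth limits Mycl, Mycn, Mlxipl and Arrdc4, whose counts were low.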
